A study of Homo sapiens with 15 samples.

Results

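SH3GL2, ASTN1, FBXL7 and CERS4 are 4 of the 17360 gene symbols measured in A375 melanoma cells, chosen because they set overexpression of VAV1 apart from overexpression of RAC1 P29S. They were selected on the measured log2 values of the 5 groups: a change with VAV1, and no change or an opposite one with RAC1 P29S. Their levels, the effects of both proteins and the inhibitor's effect, which shares the VAV1 vehicle libraries, are therefore given as a description, without a test. SH3GL2, ASTN1 and FBXL7 were higher in VAV1 cells than in their controls, by 45.1-fold, 11.4-fold and 8.62-fold, and CERS4 was 8.41-fold lower. Against the untreated empty vector cells of the other experiment, the same VAV1 libraries were higher by 3.98, 2.41 and 1.35 log2 units for SH3GL2, ASTN1 and FBXL7 and lower for CERS4 at -0.90, in place of 5.50, 3.51, 3.11 and -3.07. In VAV1 cells CERS4 was higher with the SRC inhibitor saracatinib than with vehicle, by 64.4% of its VAV1 log2 difference. SH3GL2, ASTN1 and FBXL7 stayed within 0.31 log2 units of their level with vehicle. Without treatment, CERS4 was already low in empty vector cells, at levels that overlapped those with VAV1. All 4 genes were listed in both gene tables and passed the filter on low values in both experiments. In the vehicle and saracatinib experiment, SH3GL2, ASTN1 and FBXL7 passed only with the VAV1 libraries, where they were high, so passing carries no weight.

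A375 is an established human melanoma line with mutant BRAF, and all 15 libraries came from it, grown in medium with serum. In 1 experiment, cells with an empty vector received vehicle, and cells with VAV1 overexpression received vehicle or saracatinib. In the other, cells with an empty vector and cells with RAC1 P29S received no treatment. Each of the 5 groups had 3 libraries, which the design text calls biological triplicates. The labels name no dose, no duration, no vector system and no clone, and none of the 5 groups combined the empty vector with saracatinib, so an effect of the inhibitor without VAV1 was not measured. Whether replicates came from separate transductions is not given, so the spread that enters the p-values may be that of parallel cultures.

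VAV1 exchanges guanine nucleotides: it loads RAC1 with GTP, and it is normally a protein of blood cells. SRC family kinases phosphorylate and activate it. RAC1 P29S is a recurrent melanoma mutant that exchanges its nucleotide fast and so signals without an exchange factor. The 4 genes belong to different processes. SH3GL2 encodes endophilin A1, a BAR domain protein that bends membranes at endocytic pits and synapses. ASTN1 encodes astrotactin 1, a membrane glycoprotein of neurons that takes part in their migration along glial fibres. FBXL7 encodes an F-box protein, the part of an SCF ubiquitin ligase that picks its substrates. CERS4 encodes ceramide synthase 4, which joins long fatty acyl chains to a sphingoid base to make ceramides.

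Values were the log2 of a normalized count plus 1, and the linear values of a library summed to between 14443918 and 16262759. How many reads this stands for is unknown. Across genes, Pearson's r was 0.981 to 0.987 between libraries within a group and 0.942 to 0.967 between groups. VAV1 lay between 2.74 and 4.62 normalized counts in empty vector cells with vehicle and between 14840 and 18350 in the 6 VAV1 libraries, and the untreated experiment did not list it. RAC1 lay between 30380 and 31700 in the RAC1 P29S libraries and between 3747 and 3821 in their controls. For the RAC1 P29S samples the labelled genotype is the empty vector, against their titles. Groups follow the titles, which the RAC1 level separates in the same way. Of 8 melanocyte markers, TYR and DCT were not listed in the vehicle and saracatinib experiment. The summed level of the listed melanocyte markers was 8252 to 8763 normalized counts with the empty vector and vehicle, 2901 to 3050 with VAV1 and vehicle, 3330 to 3488 with saracatinib, 9652 to 10527 with the untreated empty vector and 5134 to 5500 with RAC1 P29S. In the same order of groups, the 4 listed glial markers of 5 summed to 1267 to 1434, 230 to 264, 325 to 421, 868 to 1119 and 246 to 278. The haematopoietic markers, 5 and 3 of 7 listed in the experiments, summed to 217 to 272, 56.2 to 68.0, 94.3 to 99.9, 113 to 119 and 66.2 to 78.8, with CD3E and HBB not listed and ITGAM at 0 in all libraries of the empty vector with vehicle and of saracatinib. The 4 listed epithelial markers of 6, without EPCAM and KRT5, summed to 6022 to 6819, 12992 to 13964, 8036 to 8434, 3111 to 3550 and 6176 to 6904. Fibroblast markers, 5 and 4 of 6 listed, summed to between 123 and 467 over all groups, and the 4 endothelial markers to between 38.2 and 111. Melanocyte and glial sums were thus lower with VAV1 and with RAC1 P29S than in their controls. In the vehicle and saracatinib experiment CERS4 and both sums were highest with the empty vector, lowest with VAV1 and vehicle, and between these with saracatinib. In the untreated experiment the CERS4 libraries of both groups overlapped. The melanocyte sum there also holds TYR and DCT, and the experiments were scaled apart. Sums are therefore not compared between experiments. The part of these sums in the results was not tested. In bulk RNA, fewer cells of a type and less RNA per cell cannot be told apart.

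Many genes passed the test in each comparison. With limma and Benjamini-Hochberg adjusted p under 0.05, 43.7% of 14410 genes were called with VAV1 (23.6% higher, 20.1% lower), 31.1% of 14036 with RAC1 P29S (15.6% and 15.5%) and 37.3% of 14410 with saracatinib (18.3% and 19.1%). The VAV1 and RAC1 P29S effects differed for 15.8% of 13810 genes (8.14% and 7.7%). Of the 13810 genes tested in both experiments, 3187 (23.1%) were called with VAV1 and were either not called or called in the opposite direction with RAC1 P29S. The opposite direction accounted for 150 of them (1.09%), and 334 (2.42%) had changed over 2-fold with VAV1. None of the 4 genes was among those 150. Ordered by the size of the VAV1 effect, SH3GL2, ASTN1 and FBXL7 stood at ranks 1, 5 and 9 of the 1766 genes (12.8%) higher with VAV1 in that set, and CERS4 at rank 5 of the 1421 lower ones (10.3%). This set follows the rule by which the 4 genes were chosen, so their ranks are a description. Genes next to the 4 in the order included ZNF385D and TFCP2L1. ZNF385D had log2 fold changes of 3.74 with VAV1 and -0.78 with RAC1 P29S, and TFCP2L1 had 3.13 and 2.05. On the lower side stood BMP7, with -3.02 and -1.08.

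**Figure D1:**
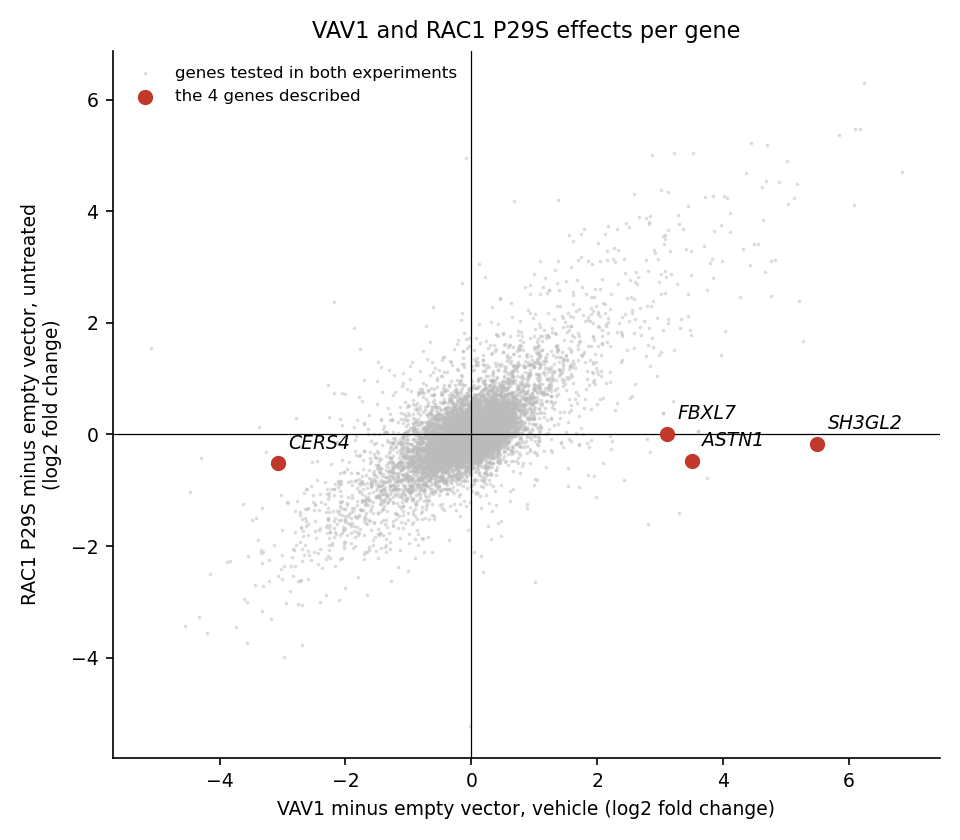
Log2 fold change of each gene tested in both experiments with VAV1 (horizontal axis, vehicle) and with RAC1 P29S (vertical axis, untreated); each grey point is 1 gene and the red points are the 4 genes described. SH3GL2, ASTN1, FBXL7 and CERS4 lie far from 0 on the VAV1 axis, at 5.50, 3.51, 3.11 and -3.07, and near 0 on the RAC1 P29S axis, between -0.52 and 0.01.

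SH3GL2 (ENSG00000107295) spans chromosome 9, 17579082 to 17797129, on the plus strand of GRCh38. With the empty vector and vehicle its normalized counts were 7.43, 8.75 and 13.6 in the 3 libraries. With VAV1 and vehicle they were 475.7, 484.3 and 476.2. The VAV1 libraries were nearly equal to each other and far above every control library. On the log2 scale the group means were 3.41 ± 0.41 (SD, n = 3) and 8.91 ± 0.02, a difference of 5.50 ± 0.17 (SE). In the untreated experiment the counts were 28.5, 29.4 and 30.2 with the empty vector and 32.1, 25.2 and 21.8 with RAC1 P29S. These groups overlapped, and the RAC1 P29S effect was -0.17 ± 0.25. The VAV1 effect exceeded the RAC1 P29S effect by 5.66 ± 0.27 log2 units. With saracatinib the counts in VAV1 cells were 534.0, 581.7 and 561.3. All 3 lay above all 3 vehicle libraries, by a mean log2 difference of 0.22 ± 0.17. The inhibitor contrast shares the VAV1 vehicle libraries with the VAV1 effect that chose the genes, and so favours a return towards the control, for each of the 4 genes.

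**Figure D2:**
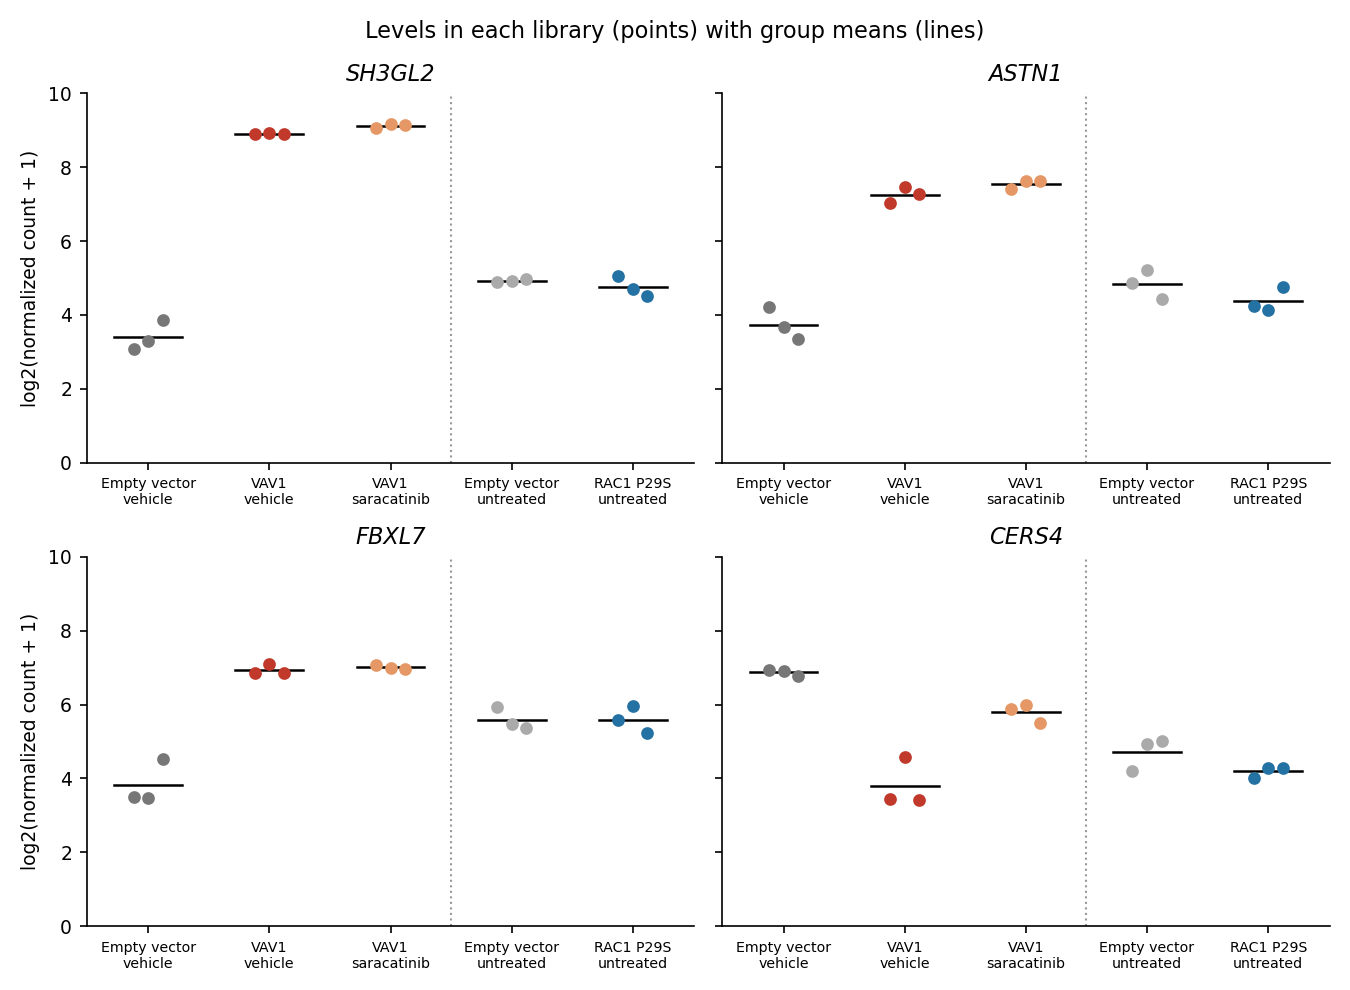
Log2(normalized count + 1) of SH3GL2, ASTN1, FBXL7 and CERS4 in each of the 15 libraries (points) with the mean of each group of 3 (lines); the dotted line separates the experiments, which were scaled apart. For SH3GL2, ASTN1 and FBXL7 the 6 VAV1 libraries lie above all other libraries, while CERS4 is low with VAV1 and vehicle, higher with saracatinib, and also low in both untreated groups.

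The regions just before the transcription starts of SH3GL2 and FBXL7 are shown because these genes had the most alike profiles over the libraries. Each is the 250 bases before a RefSeq start on GRCh38.p14, plus strand, written 5′ to 3′, and capitals mark matches to an E-box, the letters CANNTG, which basic helix-loop-helix factors and ZEB or SNAI repressors can bind. The SH3GL2 window is chr9:17578816-17579065 and the FBXL7 window is chr5:15499930-15500179, before the first of its 2 listed starts.
SH3GL2: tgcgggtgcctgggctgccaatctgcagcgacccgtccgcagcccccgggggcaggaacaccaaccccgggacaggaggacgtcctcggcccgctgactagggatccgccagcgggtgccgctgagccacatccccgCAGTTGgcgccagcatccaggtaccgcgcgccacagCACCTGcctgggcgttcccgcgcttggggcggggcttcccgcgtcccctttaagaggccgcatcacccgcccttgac
FBXL7: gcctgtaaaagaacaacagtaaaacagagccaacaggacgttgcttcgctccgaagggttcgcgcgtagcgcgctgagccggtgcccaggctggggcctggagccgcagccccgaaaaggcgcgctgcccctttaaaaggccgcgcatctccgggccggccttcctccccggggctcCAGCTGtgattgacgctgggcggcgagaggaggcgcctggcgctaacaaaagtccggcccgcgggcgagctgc
The SH3GL2 window held CAGTTG at 113 to 108 bases before the start and CACCTG at 77 to 72, and the FBXL7 window held CAGCTG at 73 to 68. An E-box match on either strand was present in 61.8% of 35116 RefSeq promoter windows of this length. Neither window held the AP-1 letters TGANTCA (6.57% of all windows) or the TEAD letters GGAATG (11.9%), on either strand and counting overlapping matches of different motifs separately. Both lay above the median of 58% in G and C, at 72.0% and 67.2%, and 83.7% and 72.7% of all windows had a lower share. They held 25 and 27 CG dinucleotides against a median of 11. The window before the other FBXL7 start, chr5:15501188-15501437, was 52.0% G and C and held GGAATG at 209 to 204 bases before that start. The ASTN1 window lay inside exons of the GENCODE annotation and held CATTCC, the reverse complement of the TEAD letters, at 104 to 99 bases before the start. A match of letters does not show binding. No promoter of CERS4 is shown.

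The other endophilins did not pass with VAV1. SH3GL1, the broadly expressed endophilin A2, changed by 0.09 ± 0.05 log2 units with VAV1 (limma adjusted p = 0.182, 95% interval -0.02 to 0.20) and by 0.09 ± 0.06 with RAC1 P29S (0.264). SH3GL3, endophilin A3, had -0.12 ± 0.30 with VAV1 (0.787) and did not pass the filter on low values in the untreated experiment. The endophilin B genes SH3GLB1 and SH3GLB2 had 0.04 ± 0.07 (0.697) and -0.04 ± 0.09 (0.756). Their 95% intervals with VAV1 ran from -0.77 to 0.53 for SH3GL3 and from -0.23 to 0.18 over SH3GLB1 and SH3GLB2. Under saracatinib SH3GL3 fell, from 31.7, 25.5 and 19.9 normalized counts to 10.1, 9.24 and 9.47 (log2 fold change -1.31 ± 0.30, limma adjusted p = 0.00385). SH3GL1 fell by 0.28 ± 0.05 (limma adjusted p = 0.000789). SH3GLB1 rose by 0.19 ± 0.07 (0.0393), and this did not pass in 7 of 18 alternative settings.

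Among 31 other genes of endophilin function and clathrin-mediated endocytosis, all tested with VAV1, 7 were higher and 5 lower (38.7%, against 43.7% of all genes), with a median log2 fold change of 0.00 (0.02 over all genes). The higher genes included AMPH, which encodes amphiphysin, a BAR domain partner of dynamin at endocytic pits, and the lipid phosphatase gene SYNJ2 (0.65 ± 0.09, limma adjusted p = 5.29e-05). AMPH had 0.823, 3.39 and 0.705 normalized counts with the empty vector and vehicle and 11.5, 14.4 and 6.24 with VAV1. Its log2 fold change was 2.22 ± 0.55 with VAV1 and -0.26 with RAC1 P29S. AMPH passed the filter in the vehicle and saracatinib experiment through VAV1 libraries alone, so these values are given without a test. In the untreated experiment AMPH stood at 21.6, 13.8 and 20.3 with the empty vector, above every VAV1 vehicle library in 2 of 3 cases, so only the empty vector group with vehicle was low. DNM1, the dynamin that severs vesicles in neurons, was lower with VAV1 (-1.08 ± 0.14, limma adjusted p = 7.91e-05), had -0.12 with RAC1 P29S, and differed between the effects by -0.95 ± 0.24 (0.0126). DNM3 was lower with both, at -1.0 ± 0.15 with VAV1 (0.000133) and -0.84 ± 0.15 with RAC1 P29S (0.00185). With RAC1 P29S, 29 genes of the list were tested, and 6 were higher and 3 lower (31.0%, against 31.1%). With saracatinib 5 were higher and 9 lower of 31 (45.2%, against 37.3%, median -0.06), BIN1 (-0.83 ± 0.19, limma adjusted p = 0.00316) and DNM1 (-0.58 ± 0.14, 0.0077) among the lower ones. The difference between the VAV1 and RAC1 P29S effects passed for 5 of 29 genes (17.2%, against 15.8%), with DNM1, SH3KBP1, PICALM and AP2A1 lower. This count and that with VAV1 include AMPH as higher. Its entry through VAV1 libraries alone means that its calls carry no weight. The AP2A1 call was lost in 9 of 23 alternative settings.

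ASTN1 (ENSG00000152092) spans chromosome 1, 176857302 to 177164973, on the minus strand, with the microRNA gene MIR488 inside it and no shared exon bases. Its normalized counts were 17.6, 11.7 and 9.10 with the empty vector and vehicle, and 129.5, 174.5 and 153.0 with VAV1 and vehicle. No library of these groups overlapped, and the log2 means were 3.74 ± 0.44 (SD, n = 3) and 7.25 ± 0.21, which differ by 3.51 ± 0.22 (SE). With saracatinib the counts were 169.0, 197.3 and 196.5. They overlapped the vehicle libraries, with a mean log2 difference of 0.31 ± 0.22. Untreated, the counts were 28.2, 36.0 and 20.7 with the empty vector and 17.8, 16.6 and 25.9 with RAC1 P29S. These groups overlapped as well, with a RAC1 P29S effect of -0.47 ± 0.31, and the VAV1 effect exceeded it by 3.98 ± 0.36.

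ASTN2, the paralogue that regulates trafficking of ASTN1 in neurons, rose with RAC1 P29S and did not pass with VAV1. It stood at 209.0, 215.3 and 229.0 normalized counts with the empty vector and vehicle and at 210.0, 207.8 and 228.4 with VAV1 and vehicle. The VAV1 effect was -0.02 ± 0.10 (limma adjusted p = 0.916). With RAC1 P29S it rose from 159.4, 152.6 and 157.1 to 227.5, 243.5 and 231.7, by 0.58 ± 0.11 log2 units (limma adjusted p = 0.00228). The VAV1 effect was smaller than the RAC1 P29S effect by a difference of -0.60 ± 0.13 (limma adjusted p = 0.00521). The RAC1 P29S libraries of ASTN2 overlapped the empty vector libraries with vehicle, and the untreated empty vector libraries lay below both.

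RELN encodes reelin, the secreted signal that positions migrating neurons. It was at 0, 0.299 and 0 normalized counts with the empty vector and vehicle, at 53.7, 47.6 and 27.7 with VAV1, and at 7.12, 6.89 and 4.73 with saracatinib. In the untreated experiment it stood at 5.43, 5.38 and 4.38 with the empty vector and at 22.9, 10.8 and 25.0 with RAC1 P29S. The VAV1 libraries with vehicle lay above all others, and the RAC1 P29S libraries lay above their controls. RELN passed the filter on low values through these groups alone, the ones where it was high, so its values are a description without a test. NRG1, a growth factor for ERBB receptors that guides migrating neurons and glia, was higher with both, by 3.75 ± 0.16 and 2.59 ± 0.18, with a difference of 1.16 (limma adjusted p = 0.00438). NRCAM, a neuronal adhesion molecule, was lower with both, at -2.73 ± 0.28 and -2.63 ± 0.16, and rose with saracatinib by 1.3 ± 0.28 (limma adjusted p = 0.00288).

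Of the 25 genes in the list on astrotactin and neuronal migration, 21 were tested in each comparison. With VAV1, 5 were higher and 5 lower (47.6%, against 43.7% of all genes), with a median log2 fold change of 0.01. With RAC1 P29S, 6 were higher and 5 lower (52.4%, against 31.1%). Saracatinib raised 7 and lowered 6 (61.9%, against 37.3%), and the VAV1 and RAC1 P29S effects differed for 7 (33.3%, against 15.8%). Each of these counts includes RELN, which passed the filter only through the groups where it was high, so its calls carry no weight. The genes of this list moved in both directions in every comparison. ADGRG1, an adhesion receptor of the developing cortex, was lower with VAV1 (-0.56 ± 0.06, limma adjusted p = 6.88e-06) and higher with saracatinib (0.70 ± 0.06, 1.37e-06), and its effects differed by -0.65 ± 0.09 (7.02e-05). Neuron markers, of which 10 of 12 were listed in the vehicle and saracatinib experiment, without ELAVL3 and ELAVL4, summed to 790.4 to 797.6 normalized counts with the empty vector and vehicle. They summed to 596.5 to 602.3 with VAV1, below the control, and to 1264.8 to 1460.8 with saracatinib. The relation of this sum to SH3GL2 and ASTN1 was not tested. Of the listed markers, 6 had a mean count of 10 or more with the empty vector and vehicle, and 7 in each VAV1 group. In the untreated experiment 8 were listed, with 882.7 to 972.3 for the empty vector and 763.6 to 786.6 for RAC1 P29S. None of the listed neuron markers was at 0 in every library of a group.

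FBXL7 (ENSG00000183580) spans chromosome 5, 15500196 to 15939795, on the plus strand, with MIR887 inside it and no shared exon bases. With the empty vector and vehicle its normalized counts were 10.3, 10.0 and 22.1, and with VAV1 and vehicle 113.9, 135.6 and 115.9. The third control library was above the others but far from the VAV1 libraries. The log2 means were 3.83 ± 0.61 (SD, n = 3) and 6.94 ± 0.14, a difference of 3.11 ± 0.26 (SE). With saracatinib the counts were 134.4, 126.3 and 124.5, which overlapped those with vehicle. The mean log2 difference was 0.08 ± 0.26. In the untreated experiment FBXL7 stood at 59.8, 43.1 and 40.2 with the empty vector and at 46.5, 61.5 and 36.8 with RAC1 P29S. The groups overlapped fully, with an effect of 0.01 ± 0.25, and the VAV1 effect exceeded it by 3.10 ± 0.37.

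Of 26 tested genes of the leucine-rich F-box family and the SCF core, 3 were higher and 3 lower with VAV1 (23.1%, against 43.7% of all genes), with a median log2 fold change of 0.01. FBXL17, which acts on BTB domain proteins, was lower with VAV1 (-0.51 ± 0.14, limma adjusted p = 0.0106) and higher with saracatinib (0.58 ± 0.14, 0.00639). FBXL20 was lower with VAV1 (-0.53 ± 0.12, limma adjusted p = 0.00213) and with RAC1 P29S (-0.52 ± 0.12, 0.00782). SKP2, the F-box protein that targets the cell cycle inhibitor p27, had 0.21 ± 0.07 with VAV1 (0.031, lost in 6 of 18 alternative settings) and fell with saracatinib by 0.48 ± 0.07 (0.000134). With RAC1 P29S, 2 genes were higher and 2 lower of 26 (15.4%, against 31.1%), the higher ones FBXL2 (0.93 ± 0.17, limma adjusted p = 0.0021) and FBXL21 (2.18 ± 0.53), which passed the filter there through the RAC1 P29S libraries alone. Saracatinib raised 1 and lowered 5 (23.1%, against 37.3%). The effects of VAV1 and RAC1 P29S differed for 3 of the 26 (11.5%, against 15.8%), with SKP1 and RBX1 higher. This count and that with RAC1 P29S include FBXL21, whose effects differed by -2.33 ± 0.60. Its entry through the RAC1 P29S libraries alone means that its calls carry no weight. The SKP1 and RBX1 calls were lost in 7 and 18 of 23 alternative settings.

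SRC, AURKA and BIRC5 are reported substrates of FBXL7 at the protein level, and the values here are of their RNA. SRC, the kinase that saracatinib inhibits, stood at 1414, 1384 and 1410 normalized counts with the empty vector and vehicle and at 1010, 987 and 904 with VAV1 and vehicle. It was lower with VAV1 by a log2 fold change of -0.54 ± 0.06 (limma adjusted p = 9.04e-06) and rose with saracatinib, to 1306, 1260 and 1365 (0.44 ± 0.06, 7.62e-05). With RAC1 P29S it had -0.23 ± 0.09 (0.0686), and the effects differed by -0.31 ± 0.11, which did not pass (0.0611). AURKA, the mitotic kinase, was higher with VAV1 (0.35 ± 0.05, limma adjusted p = 0.000138), had 0.06 ± 0.05 with RAC1 P29S (0.45), and fell with saracatinib by 0.50 ± 0.05 (7.7e-06). Its effects differed by 0.29 ± 0.07 (limma adjusted p = 0.00987). BIRC5, which encodes survivin, had 0.15 ± 0.06 with VAV1 (0.0412, a call lost in 13 of 18 alternative settings), -0.12 ± 0.06 with RAC1 P29S (0.127) and fell with saracatinib by 0.48 ± 0.06 (1.75e-05). The effects on BIRC5 differed by 0.27 ± 0.08 (limma adjusted p = 0.0207) and did not pass in 2 of 23 settings. All 3 of the 3 substrates thus passed with saracatinib (against 37.3% of all genes), SRC in the upward direction, and 3 of 3 with VAV1 (against 43.7%), while 0 of 3 passed with RAC1 P29S (against 31.1%).

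CERS4 (ENSG00000090661) spans chromosome 19, 8206736 to 8262421, on the plus strand. Genes on the opposite strand lie inside SH3GL2, FBXL7 and CERS4, share 0 exon bases with them and were not listed in the tables. With the empty vector and vehicle CERS4 stood at 122.0, 119.5 and 109.4 normalized counts, and with VAV1 and vehicle at 9.78, 22.8 and 9.73. The groups were far apart, with log2 means of 6.88 ± 0.08 (SD, n = 3) and 3.81 ± 0.66 and a VAV1 effect of -3.07 ± 0.29 (SE). With saracatinib it stood at 58.1, 62.2 and 44.1. All 3 libraries lay between the VAV1 vehicle libraries and the controls without overlap. The mean with saracatinib was 1.98 ± 0.29 log2 units, or 3.94-fold, above that with vehicle. The remaining difference from the empty vector with vehicle was -1.09 ± 0.29. The inhibitor difference was 64.4% of the VAV1 log2 difference, and 61.3% to 69.2% when each library was left out in turn.

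CERS4 was low in the untreated experiment whatever the vector. It stood at 17.4, 29.3 and 31.3 normalized counts with the empty vector and at 15.1, 18.3 and 18.6 with RAC1 P29S. These groups overlapped, and the RAC1 P29S effect was -0.52 ± 0.31, in the same direction as that of VAV1 and not opposite to it. The VAV1 effect was further from 0 by -2.55 ± 0.43. The VAV1 vehicle libraries of CERS4 overlapped those of the untreated empty vector and of RAC1 P29S, and the saracatinib libraries lay above the untreated empty vector libraries by a mean log2 difference of 1.07.

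The other ceramide synthases had smaller effects. CERS1 was lower with VAV1 (-0.60 ± 0.15, limma adjusted p = 0.00545) and with RAC1 P29S (-0.58 ± 0.14, 0.0106), with a difference of -0.02 ± 0.22 between the effects (0.973, 95% interval -0.47 to 0.44). With saracatinib CERS1 had 0.36 ± 0.15 (0.0741). CERS2, which makes very long chain ceramides, was higher with VAV1 (0.23 ± 0.04, limma adjusted p = 0.00088) and with RAC1 P29S (0.16 ± 0.05, 0.0294, lost in 6 of 14 alternative settings). CERS5 and CERS6 did not pass with VAV1, at -0.24 ± 0.12 (0.109) and 0.25 ± 0.10 (0.0659), and CERS3 was not listed. With saracatinib none of CERS1, CERS2, CERS5 and CERS6 passed.

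**Figure D3:**
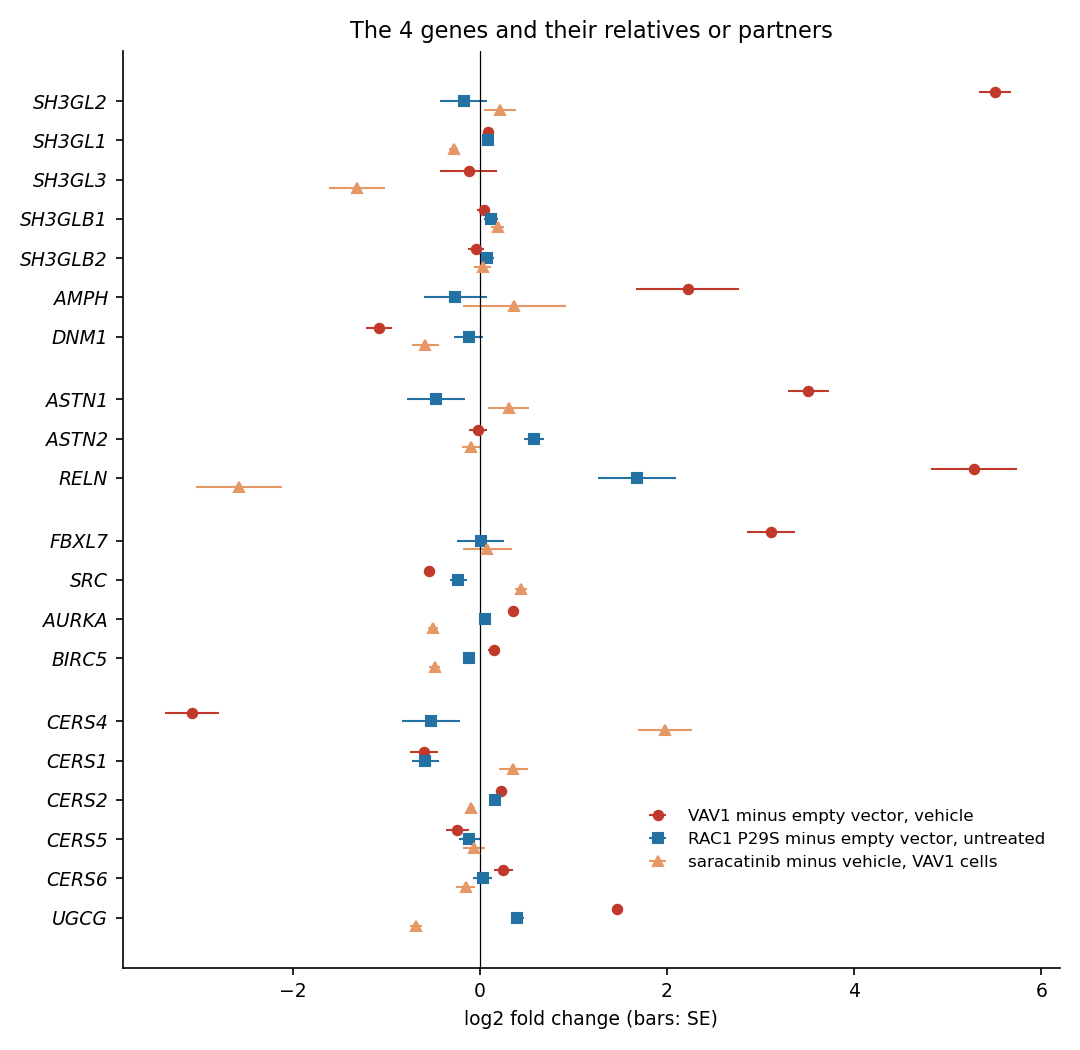
Log2 fold change (points) with its SE (bars) of SH3GL2, ASTN1, FBXL7, CERS4 and their relatives or partners with VAV1 (red circles), with RAC1 P29S (blue squares) and with saracatinib in VAV1 cells (orange triangles). With VAV1 the family members SH3GL1, SH3GL3, SH3GLB1, SH3GLB2, ASTN2, CERS1, CERS2, CERS5 and CERS6 lie between -0.60 (CERS1) and 0.25 (CERS6). The partners lie between -1.08 (DNM1) and 5.28 (RELN). SH3GL2, ASTN1, FBXL7 and CERS4, chosen for a change with VAV1, lie beyond 3 on either side.

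UGCG, which turns ceramide into glucosylceramide, differed between VAV1 and RAC1 P29S as well. It stood at 1060, 1182 and 1091 normalized counts with the empty vector and vehicle, at 3064, 2982 and 3217 with VAV1, and at 1882, 1910 and 2008 with saracatinib. The VAV1 effect was 1.47 ± 0.06 (limma adjusted p = 1.87e-10) and the saracatinib effect -0.68 ± 0.06 (8.76e-07). With RAC1 P29S it rose less, from 861.6, 900.7 and 984.5 to 1196, 1249 and 1186 (0.40 ± 0.07, limma adjusted p = 0.00127), and the effects differed by 1.07 ± 0.08 (2.31e-07). The sphingosine 1-phosphate receptors S1PR1 and S1PR2 moved in the same direction with both proteins. S1PR1 was higher by 3.85 ± 0.26 with VAV1 and 2.81 ± 0.20 with RAC1 P29S, and S1PR2 was lower, at -1.87 ± 0.11 and -1.73 ± 0.13. S1PR1 had 20.95, 9.70 and 8.79 normalized counts with the empty vector and vehicle. It passed the filter in that experiment only with VAV1 libraries, so its VAV1 value is a description. The sphingomyelin synthase gene SGMS2 was higher by 2.06 ± 0.28 and 1.14 ± 0.17.

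Of 37 tested genes of ceramide and sphingolipid metabolism, 11 were higher and 5 lower with VAV1 (43.2%, against 43.7% of all genes), with a median log2 fold change of 0.09. With RAC1 P29S, 7 were higher and 6 lower of 38 (34.2%, against 31.1%). The effects of VAV1 and RAC1 P29S differed for 3 of 37 (8.11%, against 15.8%): UGCG, the dihydroceramide desaturase gene DEGS1 (0.35 ± 0.07, limma adjusted p = 0.0031) and SGMS1 (-0.65 ± 0.21, 0.0446, lost in 11 of 23 alternative settings). With saracatinib 6 were higher and 4 lower of 37 (27.0%, against 37.3%). The higher ones included the lysosomal enzyme genes ASAH1 (1.11 ± 0.08, limma adjusted p = 1.49e-07) and SMPD1 (0.96 ± 0.10, 9.21e-06), which encode acid ceramidase and acid sphingomyelinase. The counts with VAV1 (higher) and with saracatinib (lower) include S1PR1. Its entry through VAV1 libraries alone means that these calls carry no weight.

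The controls of the experiments differed for all 4 genes, and always towards the VAV1 level. The untreated empty vector libraries exceeded the empty vector libraries with vehicle by 1.51 log2 units for SH3GL2, 1.10 for ASTN1 and 1.76 for FBXL7, and they were below them for CERS4, at -2.17. Over the 13810 genes tested in both experiments the median difference was 0.076 and the median absolute difference 0.28. The absolute differences of SH3GL2, ASTN1, FBXL7 and CERS4 exceeded those of 97.1%, 93.1%, 98.2% and 99.3% of genes. Vehicle, experiment and the separate scaling cannot be told apart here. Choosing genes far from the vehicle controls also favours genes whose vehicle controls lie far from the untreated ones, so these percentages are a description.

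**Figure D4:**
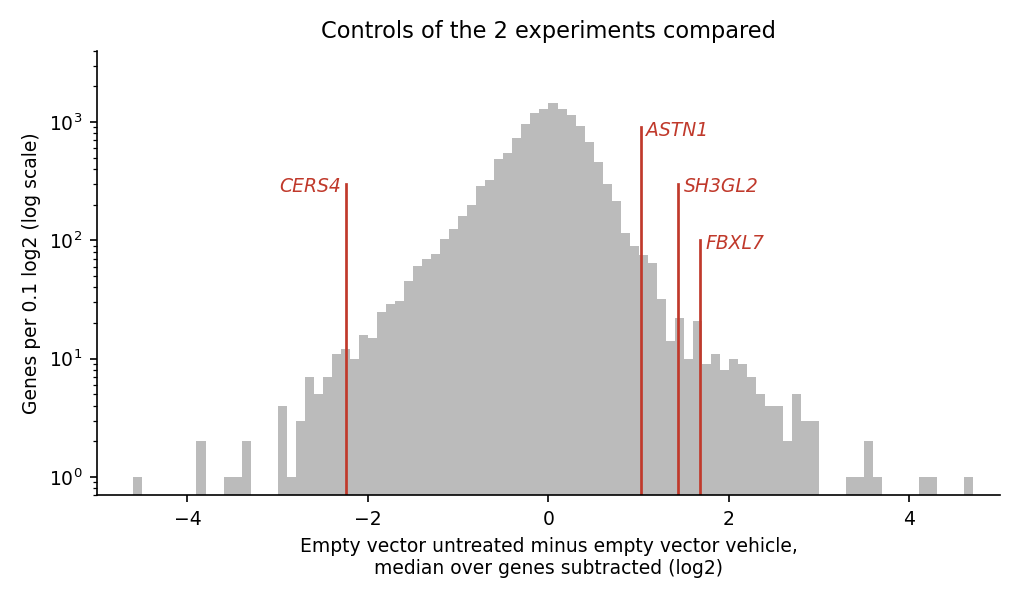
Number of genes (log axis) by the difference between the untreated and the vehicle-treated empty vector groups, in log2 units after the median over 13810 genes was subtracted; red lines mark the 4 genes. SH3GL2, ASTN1 and FBXL7 lie at 1.44, 1.02 and 1.68 and CERS4 at -2.24, in the tails of the distribution.

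Each effect was taken within its own experiment, and whether the VAV1 libraries share the shift of their controls cannot be told from these groups. For SH3GL2, ASTN1 and FBXL7 both VAV1 groups stood above all other groups without overlap, the VAV1 vehicle libraries exceeding the untreated empty vector by 3.98, 2.41 and 1.35 log2 units. FBXL7 thus lay 3.11 above 1 control and 1.35 above the other. Neighbours in this order were the untreated empty vector and RAC1 P29S groups, which overlapped for all 4 genes. The empty vector with vehicle was lowest by its mean for all 3. The choice of genes favours such an order, and the share of all genes with it was not counted. For CERS4 the order of the means ran from the empty vector with vehicle through saracatinib, the untreated empty vector and RAC1 P29S to VAV1 with vehicle. VAV1 with vehicle overlapped both untreated groups there, at mean log2 differences of -0.90 and -0.38.

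SH3GL2, ASTN1 and FBXL7 varied together over the 15 libraries once each value was centred on the mean of the empty vector libraries of its own experiment. Pearson's r was 0.989 for SH3GL2 with FBXL7, 0.98 for SH3GL2 with ASTN1 and 0.957 for ASTN1 with FBXL7. CERS4 had -0.773 with SH3GL2, -0.729 with ASTN1 and -0.775 with FBXL7. These values describe libraries that fall into 6 with VAV1 and 9 without, and the choice of genes favours such a profile. Among all genes tested in both experiments, the 5 most like SH3GL2 were FBXL7, LRRCC1 (0.986), ASTN1, ADAM15 (0.978) and TFB2M (0.975). LRRCC1, ADAM15 and TFB2M had VAV1 effects of 0.68, 0.39 and 0.58 and RAC1 P29S effects of -0.03 to 0.00. They were picked for this profile and had it at a smaller size. Those most like ASTN1 were NAP1L3 (0.986), HS3ST3A1 (0.985), SH3GL2, AREG (0.972) and CCNA1 (0.971). AREG, which encodes the EGF receptor ligand amphiregulin, was 2.10 higher with VAV1, at -0.52 with RAC1 P29S and a further 1.21 higher with saracatinib. The genes most like FBXL7 after SH3GL2 were FBXO28 (0.975), NDUFAF4 (0.97), LRRCC1 (0.968) and PINK1 (0.964).

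CERS4 had other neighbours. The 5 genes most like it were FRMD4A (0.97), H6PD (0.965), STX1A (0.965), SERPINF1 (0.957) and GAA (0.957). All 5 were lower with VAV1, by log2 fold changes of -0.91 to -2.23, and higher with saracatinib, by 0.44 to 1.53. Picking genes by likeness to CERS4 over these same libraries favours such directions, so these values are a description. SERPINF1, which encodes the secreted factor PEDF, came nearest to CERS4 in size, with -2.23 with VAV1, -0.53 with RAC1 P29S and 1.53 with saracatinib. GAA, the lysosomal alpha-glucosidase, had -0.91, 0.02 and 0.68.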

How the data were processed

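RNA of 15 A375 libraries was sequenced after an Illumina TruSeq preparation, per the labels. The authors deposited 1 log2 value per gene symbol and library, the log2 of a normalized count plus 1. The submitters' processing notes name kallisto, DESeq2 and GRCh38, and versions and settings are not given in the sources used here. The 9 vehicle and saracatinib libraries list 16768 symbols and the 6 untreated ones 16295, with 15703 in both, scaled separately. At most 47.0% to 53.4% of values from 0.3 to 6 lay within 0.1 of a whole step, so whole reads were not recovered, depth is unknown and no count test was run.

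Groups follow the sample titles. A gene was tested where 3 or more libraries of an experiment had a normalized count of 10 or more, with limma 3.58.1 in R 4.3.3. The linear model had a mean for each group, and variances were moderated robustly with a trend on the mean. Tests were two-sided, with Benjamini-Hochberg adjustment over all genes and a threshold of 0.05. The vehicle and saracatinib experiment and the untreated experiment had a fit each, and all 15 libraries entered the fit for the difference of effects. The error of a fold change is its SE and that of a level the SD. A fold change on this scale understates the change of low genes. The procedure was checked on simulated data with known changes.

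The 4 genes and the lists of related genes were chosen with earlier results of these data known. The saracatinib effect on the 4 was planned as a test and is given as a description, since it shares the VAV1 vehicle libraries with their selection. Named genes are the 4, both transgenes, their family members, reported FBXL7 substrates, up to 3 genes per direction, list and comparison with the largest change among those past the threshold, and the 5 genes most correlated with each of the 4. Some of these are printed. Annotation is GENCODE 29 and promoter sequence is RefSeq. Alternatives covered scaling, filters, a pseudocount of 8, the libraries in the fit, the empirical Bayes options, a replicate block and leaving out each library.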

Additional observations from a re-analysis of the deposited data

Results flagged for a closer look

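Of 11 family members and reported FBXL7 substrates tested, 3 showed effects of VAV1 and RAC1 P29S that differed by a test of the difference itself, against 15.8% of 13810 genes. SH3GL1, SH3GLB1, SH3GLB2, CERS1, CERS2, CERS5, CERS6 and SRC did not pass. ASTN2 had -0.02 with VAV1 and 0.58 with RAC1 P29S, a difference of -0.60 ± 0.13 (limma adjusted p = 0.00521). AURKA had 0.35 and 0.06, a difference of 0.29 ± 0.07 (limma adjusted p = 0.00987). BIRC5 had 0.15 and -0.12, a difference of 0.27 ± 0.08 (limma adjusted p = 0.0207). RAC1 had 0.12 and 3.05, a difference of -2.93 ± 0.06 that the design fixed, since RAC1 is the transgene of the untreated experiment. SH3GL2, ASTN1, FBXL7 and CERS4 were chosen for such a difference and are not counted here. Groups of 3 are too small for the search for single outlying libraries.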

How the results depend on the processing

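With quantile normalization the saracatinib effect on FBXL7 was -0.0019 in place of 0.08, and when the fit held only the 2 groups compared that on SH3GL2 was 0.22, the same value with a smaller error. A pseudocount of 8 made the VAV1 effects smaller, at 4.78 for SH3GL2, 2.96 for ASTN1, 2.59 for FBXL7 and -2.55 for CERS4. It gave differences from the RAC1 P29S effect of 4.91, 3.32 and 2.58 and remaining effects under saracatinib of 5.0, 3.25 and 2.67 for SH3GL2, ASTN1 and FBXL7. With the untreated empty vector as control for VAV1, an alternative chosen after seeing the data, with the median over genes subtracted, the effects were 4.07, 2.5, 1.44 and -0.82 for SH3GL2, ASTN1, FBXL7 and CERS4. The cause of these shifts was not tested. Under the stricter minimum of 50 the RAC1 P29S effect and the difference gave no value for the 4 genes. Leaving out 1 library at a time gave a saracatinib effect on CERS4 of 1.79 to 2.36, and VAV1 effects of 5.33 to 5.73 for SH3GL2, 3.31 to 3.75 for ASTN1, 2.92 to 3.46 for FBXL7 and -3.45 to -2.88 for CERS4. Called genes numbered 5382 to 6249 with VAV1, 3309 to 4105 with RAC1 P29S, 4552 to 5460 with saracatinib and 1695 to 2168 for the difference. Replicate numbers do not pair libraries (correlation of residuals -0.0547 to 0.0125), and with a replicate block these counts were 5951, 3888, 5061 and 2011, while CERS4 kept 1.98 with saracatinib.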
